A study of Mus musculus with 6 samples.

Results

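The core circadian clock genes were examined in the pancreas of Ela-myc mice aged 3 months, to ask whether their transcripts differed between PARP2 KO and WT animals and from library to library. They were the 10 rows of the deposited count table, out of 29721 genes listed, whose symbols are Arntl, Clock, Per1, Per2, Per3, Cry1, Cry2, Nr1d1, Nr1d2 and Dbp. All 10 were measured well above the filter on low counts. The groups were 3 PARP2 KO and 3 WT mice, each library from another animal, and both groups carried Ela-myc. This transgene drives Myc from an elastase promoter in the acinar cells, the enzyme-secreting cells of the pancreas. The protocols speak of tumour material while the tissue label is pancreas, and the labels used here give neither the Parp2 allele nor a time of day of collection.

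The clock is a feedback loop of transcription factors that runs in nearly every cell. ARNTL (also called BMAL1) pairs with CLOCK or NPAS2 and switches on Per, Cry, Nr1d and Dbp through a DNA motif called the E-box. PER and CRY proteins then hold back their own activators. NR1D1 and NR1D2 repress Arntl, Npas2, Clock, Cry1 and Nfil3, while ROR receptors compete with them as activators. DBP, TEF and HLF activate, and NFIL3 represses, genes with a motif called the D-box, Per genes among them. In mouse peripheral organs, transcripts of Dbp, Nr1d1 and the Per genes therefore peak at times of day when those of Arntl and Npas2 are low.

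The upstream sequences of 3 members are shown as examples, Per3 and Per1 for their D-boxes and Nr1d1 for a variant E-box close to the start. These lay in the 250 bases before the RefSeq transcription start (GRCm38.p6, a table with 9 of the 10 members, without Per2). All are given 5′ to 3′ on the strand of the gene, and bases in an annotated exon of the gene were cut off. Capitals mark the D-box in Per3 (chr4:151044666-151044915, minus strand), the E-box followed by the D-box in Per1 (chr11:69098699-69098947, plus strand) and a variant E-box, read on the opposite strand as CACGTT, in Nr1d1 (chr11:98775378-98775627, minus strand).
Per3: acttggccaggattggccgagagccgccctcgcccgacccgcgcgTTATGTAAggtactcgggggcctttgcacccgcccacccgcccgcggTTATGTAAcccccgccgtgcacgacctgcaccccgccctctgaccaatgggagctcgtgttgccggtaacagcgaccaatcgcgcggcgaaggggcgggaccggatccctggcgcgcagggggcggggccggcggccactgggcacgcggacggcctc
Per1: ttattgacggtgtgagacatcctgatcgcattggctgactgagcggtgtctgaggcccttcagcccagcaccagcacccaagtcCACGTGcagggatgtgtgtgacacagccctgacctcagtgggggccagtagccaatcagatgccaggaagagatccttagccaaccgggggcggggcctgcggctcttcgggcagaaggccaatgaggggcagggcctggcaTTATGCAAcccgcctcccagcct
Nr1d1: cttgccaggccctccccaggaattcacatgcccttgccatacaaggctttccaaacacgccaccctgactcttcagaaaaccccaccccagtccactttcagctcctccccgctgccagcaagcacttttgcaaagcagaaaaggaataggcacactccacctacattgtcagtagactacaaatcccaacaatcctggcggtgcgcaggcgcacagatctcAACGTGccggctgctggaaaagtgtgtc
The Per3 matches lay 198 to 205 and 151 to 158 bases before the start. In Per1 the E-box lay 161 to 166 and the D-box 17 to 24 bases before it, and in Nr1d1 the variant E-box lay 23 to 28 bases before it. Motifs were searched on both strands as CACGTG for the E-box, CACGTT for its variant and TTATGTAA or TTATGCAA for the D-box; no matches in these windows overlapped. Of 32851 windows of this length in the table, 6.02% held the E-box, 3.85% the variant and 1.5% the D-box. Cry1, not shown, also held the E-box, and Cry1 and Cry2, not shown, held the variant, and the windows of the other members in the table held none of the 3. The core of the ROR element, AGGTCA, which NR1D1 and NR1D2 bind as well, was in 14.0% of windows, and among members in those of Clock, Per1 and Nr1d2. A match describes letters, not a site in use.

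Facts of the libraries bear on every value that follows. Totals ran from 30261153 to 32055565 counts in PARP2 KO and from 28105021 to 31016968 in WT. Parp2 had 14.4, 12.4 and 13.7 CPM in PARP2 KO replicates 1, 2 and 3, against 40.5, 36.5 and 37.5 CPM in WT, where CPM are counts scaled to a common library size, after the TMM method. Digestive enzyme genes held 4.55%, 15.1% and 0.0181% of counts in PARP2 KO replicates 1, 2 and 3, against 23.8% to 31.1% in WT. PARP2 KO replicate 3 thus had almost no acinar transcripts, although its tissue label is also pancreas. Xist and Y-linked genes marked PARP2 KO replicate 1 and WT replicates 1 and 2 as male and the other 3 as female. Tissue pieces hold many cell types, so fewer cells of a type and less RNA per cell cannot be told apart.

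By the edgeR quasi-likelihood test across 17652 genes, 4 of the 10 members were higher in PARP2 KO and 0 were lower, at a Benjamini-Hochberg adjusted p under 0.05. Of all tested genes 28.0% were called higher, 25.0% lower and 53.0% in either direction, so the members called higher were a larger share than that of all genes, and those called in either direction a smaller one. No test was made of either difference in share. At an unadjusted p under 0.05 the counts were also 4 and 0, where 31.2% of genes were higher and 29.1% lower. DESeq2, run without the count filter, called 5 higher and 0 lower (17.0% and 16.4% of 29691 genes). The 29691 were all genes with a DESeq2 p-value, and any left without an adjusted p counted as not called. DESeq2 called 5048 genes higher, against 4938 by edgeR, so its smaller share reflects the longer list of genes. Limma-voom called 2 and 0 (28.4% and 27.6% of 17652 genes). With edgeR and no count filter 2 members were higher (16.5% of 29721 genes). At an adjusted p under 0.01 the only one was Cry2 (15.7% of 17652 genes). The median log2 fold change of the members was 0.70, against 0.02 for all tested genes. The 3 knockout libraries did not move together. All 10 members had values outside the WT range in PARP2 KO replicates 1 and 2, on the same side in both, as did 72.5% of all tested genes. Replicate 3 lay inside the WT range for 4 members, on the same side as the others for 4 and on the opposite side for 2. Over all tested genes these 3 arrangements made up 3.37%, 68.1% and 1.01%.

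**Figure D1:**
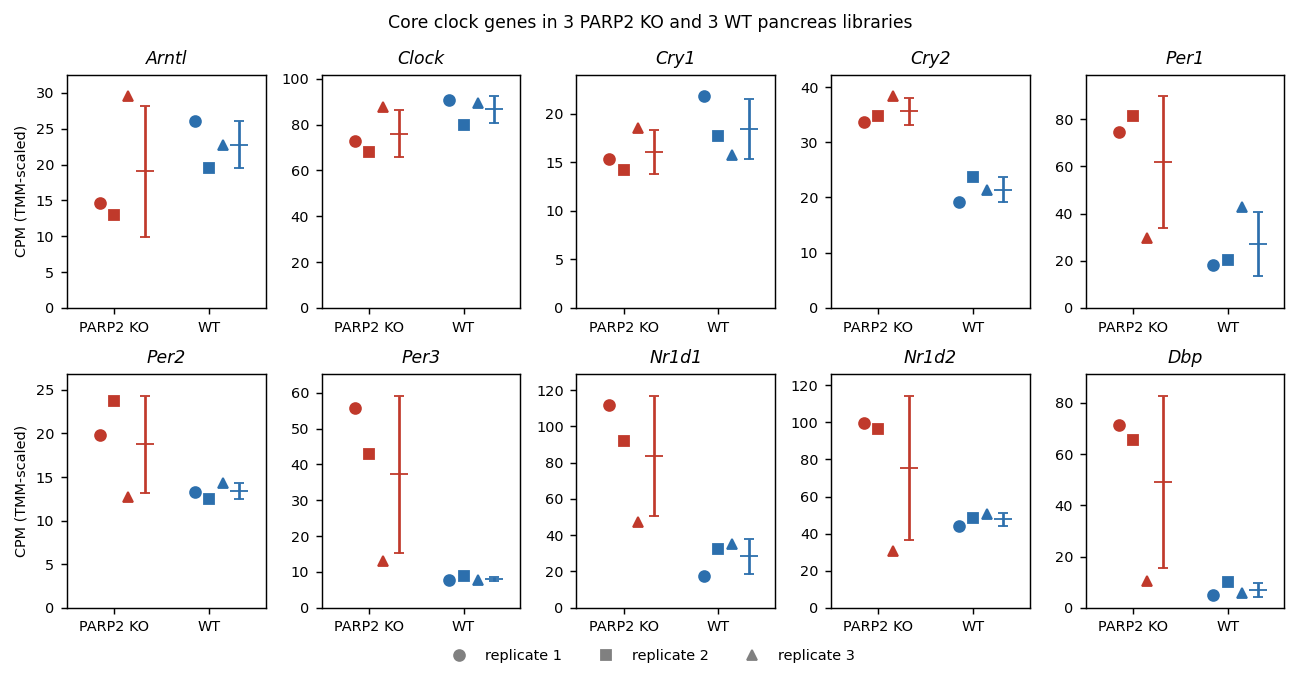
CPM of the 10 members in each library, 1 panel per gene with its own axis from 0. Points are libraries (circle, square and triangle for replicates 1, 2 and 3), and the bar beside them is the mean ± SD of 3. In PARP2 KO the triangle stands apart from the circle and square in most panels, for instance at 10.5 against 71.6 and 65.6 CPM for Dbp.

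The activators of the loop were low in the first 2 knockout replicates and at or above the WT level in the third. Arntl had 14.7, 12.9 and 29.6 CPM in PARP2 KO replicates 1, 2 and 3, against 26.1, 19.5 and 22.7 CPM in WT replicates 1, 2 and 3. Replicates 1 and 2 were below every WT library and replicate 3 above every one, so the groups overlapped (log2FC -0.26 ± 0.34, edgeR adjusted p = 0.538), where log2FC is the log2 fold change of PARP2 KO over WT ± its standard error (SE). Clock, which encodes the partner of ARNTL, had 72.7, 68.0 and 87.6 CPM in PARP2 KO, against 90.6, 79.7 and 89.4 CPM in WT. Its replicate 3 lay inside the WT range, and the difference missed the threshold (log2FC -0.19 ± 0.12, edgeR adjusted p = 0.217). Scaling by library totals alone moved the median of all genes by 0.40 (log2), and the log2FC was then 0.17 for Arntl and 0.22 for Clock.

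Of the negative arm, the Per genes were high in PARP2 KO replicates 1 and 2. Per3, which encodes a period protein that is not needed for the central rhythm, had 55.9, 43.0 and 13.1 CPM in PARP2 KO, against 7.75, 8.77 and 7.65 CPM in WT. All knockout values were above all WT values, but replicate 3 came much nearer to WT than the others did. Per3 rose with a log2FC of 2.21 (± 0.52, edgeR adjusted p = 0.0161), a call that omitting any single WT library ended (adjusted p at most 0.0582). The call of Per3 also ended with limma-voom (adjusted p = 0.0602). Per1, which also responds quickly to hormones and cyclic AMP, had 74.4, 81.5 and 29.8 CPM in PARP2 KO, against 18.3, 20.2 and 42.8 CPM in WT. Here WT replicate 3 was above PARP2 KO replicate 3, and the groups overlapped (log2FC 1.19 ± 0.50, edgeR adjusted p = 0.0900). Per1 passed the threshold without WT replicate 3, its log2FC then being 1.68 (edgeR adjusted p = 0.0458). Per2, a core repressor, had 19.9, 23.7 and 12.7 CPM in PARP2 KO, against 13.3, 12.5 and 14.3 CPM in WT, with replicate 3 inside the WT range (log2FC 0.49 ± 0.23, edgeR adjusted p = 0.116).

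The cryptochrome genes, whose proteins are the main repressors of CLOCK and ARNTL, parted from each other. Cry2 had 33.7, 34.7 and 38.4 CPM in PARP2 KO, against 19.2, 23.7 and 21.3 CPM in WT. It was the member with the most even rise, 35.6 ± 2.49 CPM in PARP2 KO and 21.4 ± 2.26 CPM in WT (SD, n = 3 each; log2FC 0.74 ± 0.11, edgeR adjusted p = 0.00375). Its call held in all 16 alternatives, whose adjusted p was at most 0.0213. Cry1 had 15.4, 14.2 and 18.6 CPM in PARP2 KO, against 21.9, 17.7 and 15.8 CPM in WT. Its groups overlapped and its difference was not called (log2FC -0.20 ± 0.17, edgeR adjusted p = 0.333). The count of Cry1 over that of Cry2 in the same library, a ratio free of library scaling, was 0.456, 0.410 and 0.484 in PARP2 KO, against 1.14, 0.748 and 0.741 in WT, and did not overlap.

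The nuclear receptor genes of the second loop behaved unequally in replicate 3. Nr1d1, which encodes the heme-binding repressor REV-ERB alpha, had 112.1, 92.2 and 47.5 CPM in PARP2 KO, against 17.5, 32.4 and 35.4 CPM in WT. The groups did not overlap, and Nr1d1 rose with a log2FC of 1.56 (± 0.40, edgeR adjusted p = 0.0207). That call ended without PARP2 KO replicates 1 or 2 or WT replicates 1 or 2, with adjusted p up to 0.0706. Nr1d2, its paralogue, had 99.6, 96.5 and 30.8 CPM in PARP2 KO, against 43.9, 48.4 and 50.5 CPM in WT. Replicates 1 and 2 were above every WT library and replicate 3 below every one, so no difference between the genotypes was called (log2FC 0.67 ± 0.43, edgeR adjusted p = 0.232).

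Dbp, the output activator, had the widest relative range of the members. It had 71.6, 65.6 and 10.5 CPM in PARP2 KO, against 4.85, 10.1 and 5.82 CPM in WT. Replicate 3 exceeded the highest WT library by little, whereas replicates 1 and 2 lay far above it. Dbp averaged 49.2 ± 33.7 CPM in PARP2 KO and 6.94 ± 2.82 CPM in WT (SD, n = 3 each), and rose with a log2FC of 2.83 (± 0.76, edgeR adjusted p = 0.0252). The call ended without any library other than PARP2 KO replicate 3, with adjusted p up to 0.0889. The 4 members whose groups did not overlap were Per3, Cry2, Nr1d1 and Dbp, all higher, where 34.4% of all tested genes were higher without overlap and 33.7% lower.

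Per kilobase of annotated exon, the members could be ranked by level within each genotype. In PARP2 KO the mean level ran from 27.3 ± 10.8 CPM per kb for Nr1d1, 16.5 ± 11.3 for Dbp and 13.98 ± 7.19 for Nr1d2 down to 2.53 ± 1.22 for Arntl (SD, n = 3 each). In WT it ran from 9.24 ± 3.11 for Nr1d1 and 8.81 ± 0.626 for Nr1d2 down to 2.29 ± 0.152 for Per2 and 0.838 ± 0.0645 CPM per kb for Per3. Between them stood Clock (6.31 ± 0.436), Cry1 (5.53 ± 0.934), Per1 (4.82 ± 2.42), Cry2 (3.38 ± 0.356), Arntl (3.03 ± 0.438) and Dbp (2.32 ± 0.941 CPM per kb) in WT. In that WT order the libraries of neighbouring members overlapped, except between Nr1d2 and Clock and between Per2 and Per3.

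The same libraries separated when members were set against each other inside a library, which removes any effect of library scaling. The count of Dbp over that of Arntl was 4.88, 5.09 and 0.355 in PARP2 KO replicates 1, 2 and 3, against 0.186, 0.520 and 0.257 in WT. Replicates 1 and 2 thus stood 4.07 and 4.12 log2 units above the WT mean, and replicate 3 stood 0.28 above it, between WT libraries that ran from -0.65 to 0.83. Per3 over Arntl was 3.81, 3.33 and 0.442 in PARP2 KO, against 0.297, 0.449 and 0.337 in WT. Nr1d1 over Arntl was 7.65, 7.15 and 1.60 in PARP2 KO, against 0.672, 1.66 and 1.56 in WT. In these 3 ratios PARP2 KO replicate 3 was inside the WT range. It was outside that range when Clock was set over Arntl, at 4.96, 5.27 and 2.96 in PARP2 KO, against 3.47, 4.08 and 3.94 in WT, with replicate 3 below WT and the others above. Dbp over Npas2 was 46.4, 59.4 and 1.298 in PARP2 KO, against 0.689, 1.12 and 0.601 in WT. Per3 over Npas2 was 36.3, 38.9 and 1.62 in PARP2 KO, against 1.10, 0.971 and 0.790 in WT. In both ratios over Npas2 replicate 3 was above every WT library, though far nearer to WT than to the other knockout libraries. Per1 over Per2 was 3.75, 3.44 and 2.34 in PARP2 KO, against 1.37, 1.62 and 2.995 in WT, with replicate 3 inside the WT range.

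Leaving out 1 library at a time showed how much replicate 3 decided. Without it, 7 members were higher and 1 was lower, where 23.5% and 20.4% of tested genes were called. The 7 were the Per genes, Cry2, both Nr1d genes and Dbp, with log2 fold changes between 0.69 for Cry2 and 3.32 for Dbp. The 1 that fell was Arntl, at a log2FC of -0.71 (± 0.15, edgeR adjusted p = 0.0175). The SE of Dbp was 0.33 without replicate 3 and 0.76 with it. Without WT replicates 1 or 2 the member called was Cry2 alone (22.0% and 20% of genes higher). Without PARP2 KO replicates 1 or 2, 2 members were higher (20% and 28.0% of genes), and without WT replicate 3, 3 were (23.5% of genes).

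**Figure D2:**
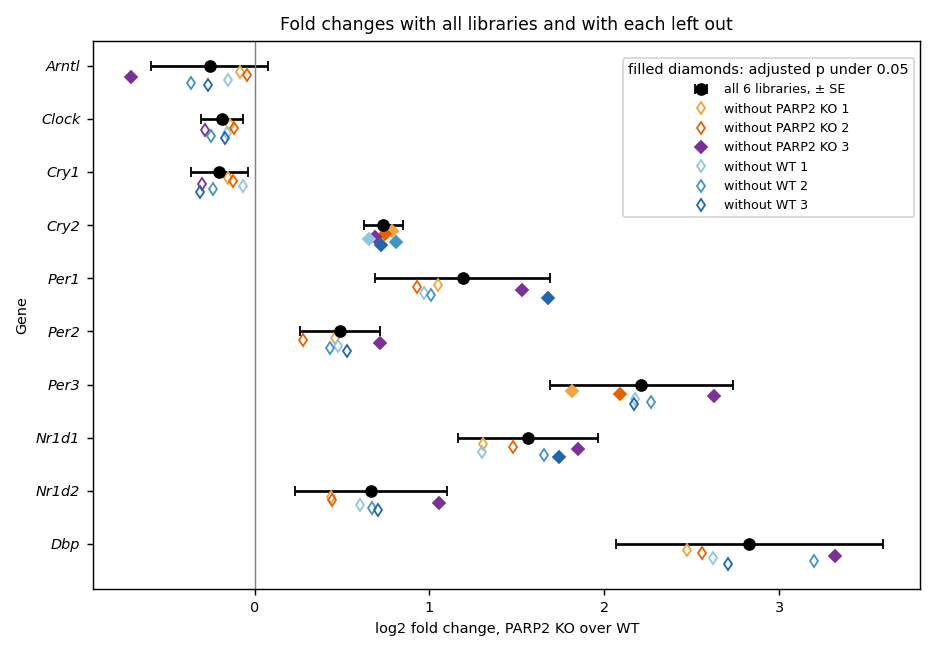
Log2 fold change of each member, PARP2 KO over WT, with all 6 libraries (black circle, bar ± SE) and with each library left out (diamonds, filled where edgeR adjusted p was under 0.05). The purple diamonds, without PARP2 KO replicate 3, lie farthest from 0, among these fits, for Arntl at -0.71, Per3 at 2.63 and Dbp at 3.32.

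Several other genes of the clock also set PARP2 KO replicates 1 and 2 apart from replicate 3. Npas2, which encodes the alternative partner of ARNTL, had 1.54, 1.10 and 8.10 CPM in PARP2 KO replicates 1, 2 and 3, against 7.04, 9.03 and 9.68 CPM in WT. Replicates 1 and 2 were far below WT and replicate 3 inside its range, and the genotype difference missed the threshold (log2FC -1.26 ± 0.77, edgeR adjusted p = 0.207). Without replicate 3, Npas2 fell by 2.68 on the log2 scale (± 0.29 SE, edgeR adjusted p = 0.0062). Arntl2, a paralogue of Arntl, had 5.52, 5.78 and 4.14 CPM in PARP2 KO, against 7.59, 4.56 and 7.03 CPM in WT, with overlapping groups (edgeR adjusted p = 0.324). Neither activator paralogue was called in either direction by edgeR, and neither was at an unadjusted p under 0.05 or by DESeq2.

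Among 6 output and feedback transcription factor genes 3 rose and 1 fell, where 28.0% of all tested genes were higher and 25.0% lower. With a library left out 1 to 3 of these 6 genes rose and 0 to 1 fell. Tef had 155.6, 151.2 and 54.0 CPM in PARP2 KO, against 33.0, 35.0 and 42.9 CPM in WT, and rose with a log2FC of 1.70 (± 0.41, edgeR adjusted p = 0.0175). Hlf had 27.6, 27.0 and 6.60 CPM in PARP2 KO, against 3.05, 3.31 and 3.79 CPM in WT, and rose with a log2FC of 2.59 (± 0.56, edgeR adjusted p = 0.0117). Like Dbp, these related activators of the D-box were much lower in replicate 3 than in replicates 1 and 2, though still above WT. Bhlhe40, which encodes a repressor that competes at E-boxes, had 71.1, 71.8 and 45.6 CPM in PARP2 KO, against 39.0, 43.7 and 38.1 CPM in WT (log2FC 0.64 ± 0.19, edgeR adjusted p = 0.0287). Nfil3, the D-box repressor, fell, with 5.19, 5.43 and 11.9 CPM in PARP2 KO, against 51.1, 25.2 and 13.8 CPM in WT (log2FC -2.0 ± 0.58, edgeR adjusted p = 0.0310). WT libraries differed widely for Nfil3, and WT replicate 3 was close to PARP2 KO replicate 3. The paralogue Bhlhe41 and the repressor gene Ciart had overlapping groups and were not called (edgeR adjusted p = 0.212 and 0.749).

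Of these 4 calls, that of Hlf held with any library left out but ended with limma-voom (adjusted p = 0.0621). The call of Tef ended without PARP2 KO replicate 1 or WT replicates 1 or 2, that of Nfil3 without PARP2 KO replicates 1 or 2 or WT replicates 1 or 2, and that of Bhlhe40 without any library other than PARP2 KO replicate 3. Adjusted p with a library left out reached 0.0635, 0.0965 and 0.0994 for Tef, Nfil3 and Bhlhe40. The call of Nfil3 also ended with sex as a term (edgeR adjusted p = 0.1195), with no count filter (0.0756) and with library totals as scaling (0.0561). The count of Hlf over that of Nfil3 was 5.32, 4.97 and 0.558 in PARP2 KO, against 0.0598, 0.131 and 0.275 in WT, so that replicate 3 stood above WT and well below the other knockout libraries.

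**Figure D3:**
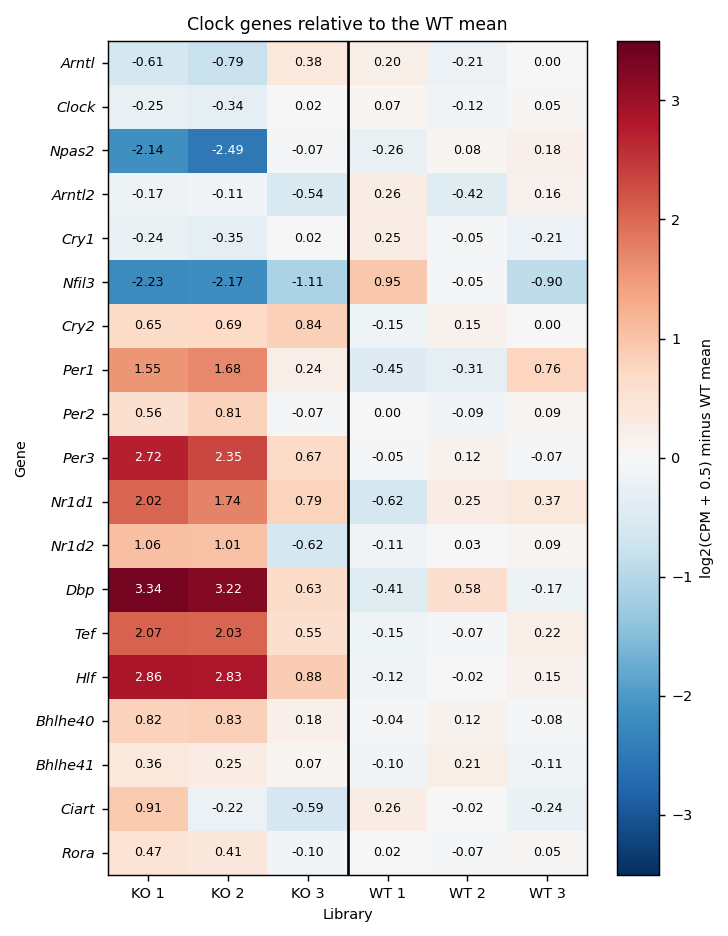
Log2(CPM + 0.5) minus the WT mean for the members and other clock transcription factor genes, with libraries in columns and genes in rows (red above the WT mean, blue below). The columns of PARP2 KO replicates 1 and 2 are nearly alike in most rows. Dbp stands at 3.34 and 3.22 there and Npas2 at -2.14 and -2.49, while replicate 3 has 0.63 and -0.07. Ciart differs between PARP2 KO replicates 1 and 2, at 0.91 and -0.22.

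Rora, which encodes an activator of Arntl, had 44.9, 42.9 and 30.0 CPM in PARP2 KO, against 32.7, 30.6 and 33.3 CPM in WT. Replicates 1 and 2 were above every WT library and replicate 3 below every one, and the difference was not called (log2FC 0.29 ± 0.16, edgeR adjusted p = 0.174). Rorb, which encodes a related receptor, had at most 5 counts in a library and was not tested.

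Of 7 kinase, ubiquitin ligase and regulator genes that act on clock proteins 1 rose and 1 fell (28.0% and 25.0% of all tested genes). With library totals as scaling 3 were higher and 0 lower, Fbxw11 and Cipc among the 3 (edgeR adjusted p = 0.0446 and 0.0477). That scaling called 42.3% of all tested genes higher and 12.2% lower, so 3 of 7 was near the share of all genes. Gsk3b, which encodes a kinase of clock proteins, rose with a log2FC of 0.25 (± 0.09, edgeR adjusted p = 0.0472). Casein kinase gene Csnk1e, whose product phosphorylates PER, had 41.5 ± 3.81 CPM in PARP2 KO and 53.2 ± 2.56 CPM in WT (SD, n = 3 each; log2FC -0.36 ± 0.10, edgeR adjusted p = 0.0214), with a log2FC of 0.04 when scaled by library totals alone. The calls of Gsk3b and Csnk1e ended under 12 and 7 of the 16 alternatives. Among these were leaving out any library other than PARP2 KO replicate 2 for Gsk3b, and PARP2 KO replicates 1 or 3 or WT replicates 1 or 2 for Csnk1e. Of 6 further outputs of the clock 1 rose and 1 fell (28.0% and 25.0% of all tested genes). Nampt, which makes a precursor of NAD, rose to 130.2 ± 9.65 CPM in PARP2 KO, against 91.4 ± 4.46 CPM in WT, and the mitotic inhibitor kinase gene Wee1 fell to 16.6 ± 5.33 CPM in PARP2 KO, against 37.9 ± 3.98 CPM in WT (SD, n = 3 each; edgeR adjusted p = 0.00527 and 0.00833). Both differed in the same direction in all 3 knockout libraries, replicate 3 included, and both calls held in all 16 alternatives.

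Glucocorticoids and acute stimuli can also change the level of Per1 and other clock genes, so their known targets were looked at in the same way. Of 8 glucocorticoid-responsive genes 2 rose and 1 fell, shares no larger than the 28.0% and 25.0% of all tested genes. Tsc22d3, which encodes the anti-inflammatory protein GILZ, had 207, 196.1 and 70.1 CPM in PARP2 KO, against 41.5, 54.1 and 80.6 CPM in WT, so that replicate 3 lay inside the WT range (log2FC 1.42 ± 0.47, edgeR adjusted p = 0.0450). Any omission other than that of PARP2 KO replicate 3 ended the call, at an adjusted p of 0.131 or less. Fkbp5, which encodes a chaperone of the glucocorticoid receptor, had 81.5, 54.8 and 66.5 CPM in PARP2 KO, against 45.6, 39.2 and 50.2 CPM in WT (edgeR adjusted p = 0.0271). The metallothionein gene Mt2 fell, with 19.98, 46.3 and 5.06 CPM in PARP2 KO, against 126.4, 109.1 and 128 CPM in WT (edgeR adjusted p = 0.0412). Calls of Fkbp5 ended without PARP2 KO replicates 1 or 3 or WT replicates 1 or 2, and that of Mt2 without PARP2 KO replicate 1 or any WT library, with adjusted p up to 0.0852 and 0.122.

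Of 6 immediate early genes, which respond within minutes to stimuli, 2 fell and 0 rose by edgeR at an adjusted p under 0.05. Among all tested genes 25.0% fell and 28.0% rose. The counts of immediate early genes were the same at an unadjusted p under 0.05 (29.1% and 31.2% of genes) and by DESeq2 (16.4% and 17.0%). With library totals as scaling 1 was higher and 0 lower (42.3% and 12.2% of genes). Without WT replicate 1 the counts were 1 higher and 2 lower (22.0% and 17.6% of genes). Ier2 had 27.9, 30.9 and 34.5 CPM in PARP2 KO, against 51.8, 56.0 and 51.1 CPM in WT, and Egr1 had 61.8, 61.5 and 43.1 CPM in PARP2 KO, against 71.2, 108.4 and 130.7 CPM in WT (edgeR adjusted p = 0.00308 and 0.0276). The call of Ier2 ended with library totals as scaling (edgeR adjusted p = 0.0597). That of Egr1 ended without any library other than WT replicate 1, with adjusted p up to 0.0766. All 3 knockout libraries were below every WT library for both genes.

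Cell type markers differed between the genotypes and among the knockout libraries. In each of the 12 lists the sum of every PARP2 KO library lay outside the WT range. So did the summed CPM of the 10 clock members, at 569.9, 532.4 and 318.6 CPM in PARP2 KO replicates 1, 2 and 3, against 263.5 to 305.6 CPM in WT. The part of these cell types in the clock values was not tested. Among single tested genes, 68.1% had CPM ranges that did not overlap between the groups, so such separation was common here. By edgeR 28.0% of all tested genes were called higher and 25.0% lower. Those are the shares to set beside the edgeR counts of markers in this paragraph and the next. Summed over 12 acinar markers, all detected in every library, PARP2 KO replicates 1, 2 and 3 had 20980, 81850 and 95.8 CPM, against 141100 to 204700 CPM in WT. None of the 12 was called higher or lower by edgeR, with 0 higher and 1 lower at an unadjusted p under 0.05 and 2 lower by DESeq2. All 8 fat cell markers rose, with sums of 4675 to 5811 CPM in PARP2 KO, against 332.8 to 762.1 CPM in WT. All 6 T cell and all 6 B cell markers rose as well, with sums of 588, 314.4 and 749.8 CPM for T cells in PARP2 KO, against 43.8 to 124.3 CPM in WT, and 1105, 1184 and 1642 CPM for B cells in PARP2 KO, against 116.4 to 322.7 CPM in WT. Replicate 3 was inside or above the range of the other knockout libraries for fat, T, B, endothelial and smooth muscle markers. For endothelial markers 4 of 5 rose, with sums of 685 to 799 CPM in PARP2 KO, against 257.5 to 292.4 CPM in WT, and for smooth muscle markers 1 of 4 rose, with 467.5 to 635 CPM in PARP2 KO, against 109.2 to 371.8 CPM in WT. Of the smooth muscle markers 4 were higher without WT replicate 3, 0 without PARP2 KO replicate 1 or WT replicate 1, and 3 by DESeq2 and by limma-voom.

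Epithelial and stromal markers separated replicate 3 in another way. Sums of 6 islet markers, of which 1 fell, were 232.5, 546.8 and 1.54 CPM in PARP2 KO, against 1238 to 3321 CPM in WT, and those of 5 duct markers, of which 3 fell, were 34.0, 93.3 and 11.2 CPM in PARP2 KO, against 201.9 to 316.6 CPM in WT. With a library left out, 0 to 5 of each list were lower. Fibroblast markers, of which 2 of 5 fell, summed to 2361, 2574 and 1543 CPM in PARP2 KO, against 2794 to 2976 CPM in WT. For macrophages 1 of 5 rose and 1 fell, with 2009 to 2346 CPM in PARP2 KO, against 1593 to 1862 CPM in WT. All 5 markers of dividing cells fell, with 276.5 to 342.7 CPM in PARP2 KO, against 616.2 to 714.2 CPM in WT. Hepatocyte markers summed to at most 35.0 CPM in PARP2 KO and 76.4 CPM in WT. The WT sums rested mainly on Ttr, at 37.7, 60.5 and 56.5 CPM in WT, against 4.03, 21.4 and 0.0257 CPM in PARP2 KO. The sums therefore need not mark hepatocytes. Of the 2 tested, 0 were called by edgeR, with 0 at an unadjusted p under 0.05, and limma-voom called 2 lower. DESeq2 tested all 4 and called 1 lower. The hepatocyte marker Serpina1a was at 0 counts in WT replicate 2, while every other marker was detected in every library. With the acinar level as a covariate 7 members were higher and 2, Arntl and Clock, lower, where 17.9% and 14.2% of tested genes were called. Acinar sums were below WT in every knockout library and by far lowest in PARP2 KO replicate 3. With 6 libraries this term thus cannot be told apart from genotype or from replicate 3, and these counts do not show clock values freed of tissue make-up.

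**Figure D4:**
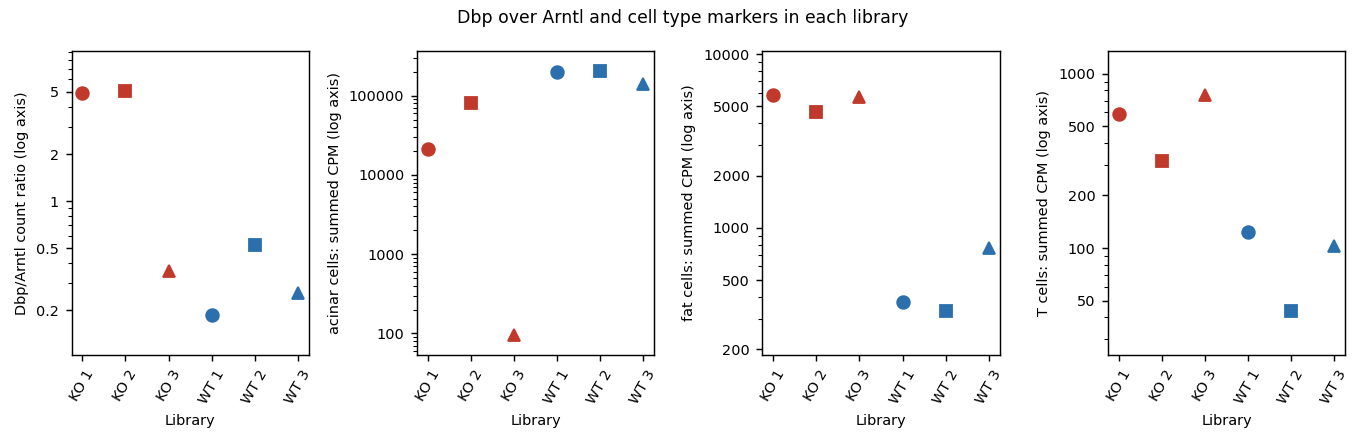
Count of Dbp over that of Arntl and summed CPM of acinar, fat cell and T cell markers in each library, on log axes (red PARP2 KO, blue WT). PARP2 KO replicate 3 lies at 0.355 in the first panel, among the WT libraries, at 95.8 CPM in the acinar panel, below every other library, and with the other knockout libraries in the fat and T cell panels.

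The arrangement of the knockout libraries was counted over all tested genes, a count chosen after the values were seen and given as a description. PARP2 KO replicates 1 and 2 were both outside the WT range on the same side for 72.5% of the 17652 genes. Replicate 3 was on that side too for 68.1% of genes, inside the WT range for 3.37% and on the opposite side for 1.01%. The members with replicate 3 inside the WT range were Clock, Per1, Per2 and Cry1, and those with it on the opposite side were Arntl and Nr1d2. Among the 6 output and feedback genes, 5 had replicates 1 and 2 outside the WT range, with replicate 3 inside it for 1 of them, Bhlhe41.

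Genes whose profiles over the 6 libraries were most like those of Dbp and Arntl were ranked by Pearson correlation of log2(CPM + 0.5), as a description. The libraries share their genotype, depth and tissue make-up, so the coefficients carry no test. Among 17651 other genes, the nearest to Dbp were Bhlhe40 (r = 0.996), the innate immune receptor gene Tlr3 (r = 0.994) and Stc1, which encodes the hormone stanniocalcin (r = 0.993), and 56 genes reached 0.95. Some other clock genes stood high in the same ranking, with Per3 at rank 8, Hlf at rank 16, Tef at rank 24 and Nr1d1 at rank 73. Others stood lower, with Per2 at rank 249, Nr1d2 at 486, Per1 at 508, Cry2 at 2296 and Ciart at 6939. Clock, Arntl and Cry1 had r = -0.94, -0.87 and -0.74 with Dbp. The nearest to Arntl were Pcid2 (r = 0.993), 2310009A05Rik (r = 0.990) and the cyclophilin gene Ppia (r = 0.987), and 16 genes reached 0.95. Clock was at rank 18, Npas2 at rank 101 and Cry1 at rank 206, but the paralogue Arntl2 was at rank 8547 (r = -0.03). At the other end, Nr1d2 had r = -0.96 with Arntl.

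On GRCm38, Per3 (ENSMUSG00000028957) spans chr4:151003652-151044665 on the minus strand and Cry2 (ENSMUSG00000068742) spans chr2:92403646-92434043 on the minus strand. Nr1d1 (ENSMUSG00000020889) spans chr11:98767932-98775333 on the minus strand, Dbp (ENSMUSG00000059824) spans chr7:45705088-45710203 on the plus strand and Arntl (ENSMUSG00000055116) spans chr7:113207465-113314126 on the plus strand. Some members share bases with other genes, which matters where the strand used in counting is not given. Dbp shares 539 of its 2993 exon bases (18.0%) with Sphk2 on the opposite strand, and Nr1d1 shares 263 of 3077 (8.55%) with Thra on the opposite strand. Both partners fell (edgeR adjusted p = 0.0218 for Sphk2 and 0.00814 for Thra). Sphk2, a sphingosine kinase gene, had 29.2, 34.2 and 35.1 CPM in PARP2 KO, against 41.1, 44.8 and 41.6 CPM in WT. Thra, which encodes a thyroid hormone receptor, had 52.8, 62.1 and 55.8 CPM in PARP2 KO, against 73.7, 79.7 and 80.2 CPM in WT. Cry2 shares 4.67% of its exon bases with the antisense transcript D930015M05Rik, and Arntl 0.439% with Gm45355. Per3 lies inside the span of Camta1 on the same strand and shares no exon base with it.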

How the data were processed

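Per the labels' protocols, RNA of pancreas kept in RNAlater was made into stranded mRNA libraries. The authors deposited whole-number read counts per gene, not normalised, and a table of log2 values. The submitters' processing notes name FastQC 0.11.5, STAR 2.5.3a, DESeq2 1.28.1 and GRCm38 (mm10) without roles; no source used here gives the counter, its strand setting or its treatment of multiply matching reads. The authors' log2 values equal log2 of counts over a DESeq2 size factor plus 1, within 5.15e-14, so the counts were tested.

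The main test was the edgeR 4.0.16 quasi-likelihood F-test (R 4.3.3), with TMM scaling, the default expression filter, robust dispersion and genotype alone, adjusted over 17652 genes. It was tested on simulated data. Log2 fold changes are PARP2 KO over WT, and the standard error (SE) is the fold change over the square root of F. Alternatives used DESeq2 1.42.0, limma 3.58.1 and other scalings, filters, terms and libraries. Libraries of 1 genotype differed beyond sampling noise (chi-square per degree of freedom 29.1 to 461). With 3 animals a group, precision rests on animal spread, not depth, and replicate numbers follow accession order.

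The members, lists and alternatives were chosen with earlier results of these data known. Named were all members, Parp2, every activator paralogue and output factor gene, Rora, Rorb, up to 4 called genes a direction in other lists, and the 3 genes most like Dbp and Arntl. A few listed genes are not reported here. Exon lengths and overlaps are from GENCODE vM21, whose spans equal the deposited ones for all 10 members; promoter sequences are from RefSeq on GRCm38.p6.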

Additional observations from a re-analysis of the deposited data

How the results depend on the processing

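The count of 4 members called higher stayed within 1.5 times of that value with DESeq2 size factors, library totals, scaling without digestive enzyme genes, a 1 CPM filter, the DESeq2 Wald test, limma on the deposited log2 values, sex as a term and adjusted p under 0.1. With library totals it was 5, where 42.3% of all tested genes were called higher, against 28.0% in the main fit. It was 2 with no count filter (16.5% of genes), 2 with limma-voom (28.4%) and 7 with the acinar level as a covariate (17.9%). At adjusted p under 0.01 it was 1 (15.7%). With each library left out it ran from 1 to 7. The count of 0 called lower was 2 with the acinar level as a covariate (14.2% of genes). With a library left out it ran from 0 to 1, being 1 without PARP2 KO replicate 3 (20.4% of genes). Over all genes, 4938 called higher and 4415 lower turned to 7475 and 2160 when scaled by library totals alone, a median shift of 0.40 (log2), and to 3161 and 2503 with the acinar covariate. With a library left out they ran from 3602 to 5125 and from 2543 to 5032. With library totals only, the uncalled values of Arntl, Clock and Cry1 were 0.17, 0.22 and 0.22, and among other clock genes Csnk1e went to 0.038, Fbxw11 to 0.32 and Cipc to 0.38, above 0 in place of below. The median of all tested genes moved from 0.02 to 0.42 under the same scaling, so these changes of sign went with a shift of all genes. What lay behind that shift was not tested. Over 160 member values under alternatives, 132 kept their side of the threshold, 16 lost a call and 12 gained one. No paired analysis was possible because replicate numbers follow accession order and pair no animals.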
